A study of Populus ussuriensis with 2 samples.

Results

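The 10 loci described here are poplar laccases, enzymes of lignin polymerization, chosen as a list of locus IDs. All 10 were found in the deposited tables, as 16 transcripts, out of 36385 loci and 65535 transcripts listed. RNA was sequenced from in vitro grown Populus ussuriensis, a poplar, in 2 libraries that form 1 group: the basal 0.5 cm of stem cuttings at day 14 after cutting, from seedlings cut at 2 weeks of age and kept on half-strength Murashige and Skoog medium with 20 g/L sucrose. Growth under 16 h of light and 8 h of dark at 25 °C is given for both libraries. No genotype, hormone or other treatment is named in the labels, and nothing in them says that the libraries came from separate plants, so the spread between replicate 1 and replicate 2 may be technical. The series is a time course, and the labels do not say whether the libraries are replicates of 1 stage or differ in stage beyond their shared day, so each SD and ratio between them may also hold a difference in stage. The tables carry locus IDs and no gene names, so neither the tissue nor each locus's place among the laccases could be checked against marker genes. The list stops within number field 17 of the IDs, and laccase loci that would follow were not analysed here.

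Laccases are multicopper oxidases that are secreted into the cell wall. There they use oxygen to turn monolignols, the building units of lignin, into radicals that couple with each other and with the growing polymer. In woody stems they act beside peroxidases in the walls of xylem vessels and fibres, and in Arabidopsis the loss of several stem laccases together arrests growth and lignin deposition. The laccase family of poplar is large and holds many near-identical copies, some of which lie side by side, and part of it is repressed by a conserved microRNA. Which of these functions each of the 10 loci serves is not given in the sources used here.

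All 10 laccase loci were detected at the stem base. The values are FPKM (fragments per kilobase and per 1000000 mapped fragments), summed over the listed transcripts of a locus, and a locus was called detected at 1 FPKM or more in both libraries. Over all listed loci 56.5% met that rule. Where a pair of values is given with no library named, the first is from replicate 1 and the second from replicate 2. The 10 laccases summed to 191.7 FPKM in replicate 1 and 164.8 FPKM in replicate 2 (178.3 ± 19.0, SD, n = 2), which was 0.0347% and 0.0308% of the listed FPKM. Of the 10, 6 had a mean above the median of detected loci, 10.7 FPKM, and the laccases spanned a 31.7-fold range of level in replicate 1 and a 35.2-fold range in replicate 2.

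Potri.010G193100 was the most abundant laccase, at 61.3 FPKM (replicate 1) and 60.8 FPKM (replicate 2). Its mean was higher than that of 95.7% of all listed loci, and it held 32.0% and 36.9% of the laccase sum. Potri.001G401300 followed at 28.9 FPKM and 23.8 FPKM. These leading loci kept their places in both libraries, and the range of each lay clear of the next locus down. Together with the third in order, Potri.016G112000, they held 58.8% of the laccase sum in replicate 1 and 61.4% in replicate 2.

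A middle group of 4 loci lay close together. Potri.016G112000 had 22.5 FPKM in replicate 1 and 16.6 FPKM in replicate 2. Potri.008G073800 had 20.8 and 16.4 FPKM. Potri.006G097000 had 17.5 FPKM in replicate 1 and 11.7 FPKM in replicate 2, and Potri.006G096900 had 16.1 and 11.9 FPKM. The ranges of neighbours in this group overlapped, so their order is not resolved by these libraries, although the first 3 of the 4 stood in the same order in both.

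Below them, Potri.008G064000 had 8.99 FPKM in replicate 1 and 7.84 FPKM in replicate 2. Potri.009G042500 had 6.58 and 8.08 FPKM, and Potri.001G248700 had 7.25 and 6.01 FPKM. Neighbours among these 3 overlapped in level and changed places between the libraries, and all 3 lay below the middle group. Potri.016G112100 was the lowest, at 1.93 and 1.73 FPKM, and its mean was higher than that of 46.4% of listed loci. Of the 9 steps down the order, 4 separated loci whose ranges did not overlap: below the first, below the second, below the middle group and above the last.

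**Figure D1:**
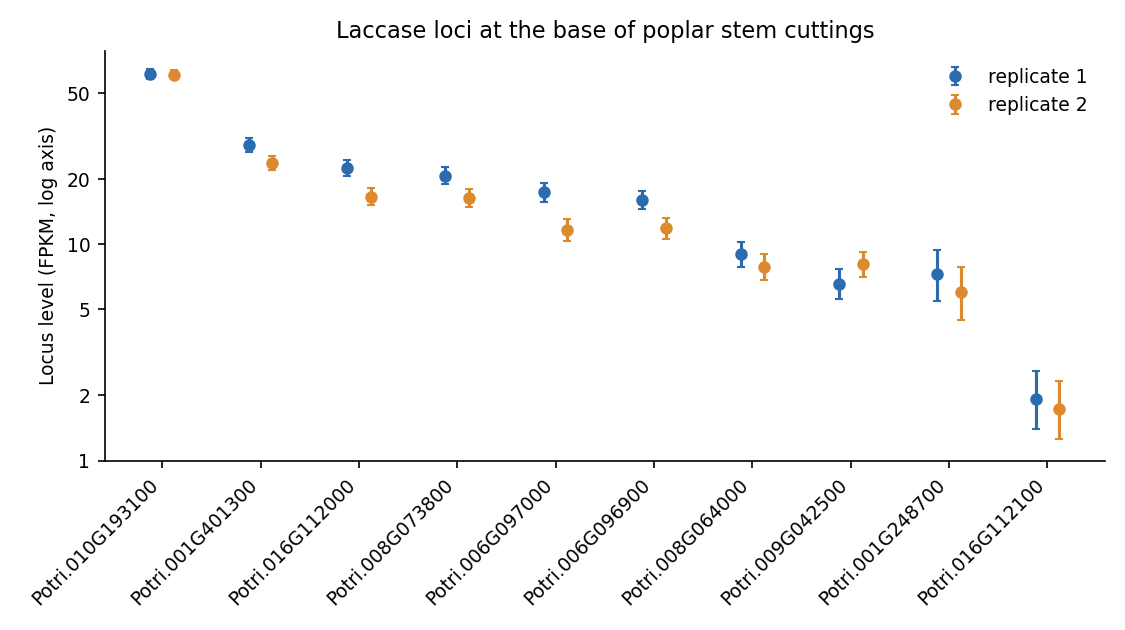
Level of each laccase locus in FPKM (log axis) in both libraries, ordered by mean; points are single libraries and bars are exact 95% Poisson intervals on the recovered reads, which cover counting error only. Potri.010G193100 stands apart at 61.3 and 60.8 FPKM, and Potri.016G112100 is lowest at 1.93 and 1.73 FPKM.

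The tables give no read numbers, but for these loci the reads behind each value could be recovered. The FPKM values behave as reads with 2 decimals divided by a whole transcript length and by 1 total per library. With totals of 10957285.72 in replicate 1 and 12513099.14 in replicate 2, each of the 14 laccase transcripts above 0 matched such reads in both libraries within 0.0001 of a hundredth of a read. With 100 wrong totals in their place and the same lengths of 150 to 3000 searched, 0 of 1400 trials gave a match. At a looser tolerance of 0.001, 22 of the 1400 did, and the tighter one was chosen after looser matches to a wrong total had been seen. The recovered lengths ran from 1801 to 2316, apart from Potri.001G248700.1, for which 692 was the smallest length with whole reads and multiples of it match equally well. Its reads, 55 in replicate 1 and 52 in replicate 2, are therefore lower bounds. If all lengths shared a factor, the totals would be lower. A read here may be a fragment with both ends sequenced, which the values do not show.

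The recovered reads set the precision of each level. Potri.010G193100 rested on 1499 reads in replicate 1 and 1611 in replicate 2, which gave exact 95% Poisson intervals of 58.2 to 64.5 FPKM and 57.9 to 63.9 FPKM. Potri.001G401300 rested on 692 and 651 reads, and the 4 loci of the middle group on 296.41 to 556 reads in a library. Potri.008G064000 had 208 reads in replicate 1 and 207 in replicate 2, and Potri.009G042500 had 156 and 219. Potri.016G112100 had only 43.00 and 43.84 reads, with intervals of 1.40 to 2.61 FPKM in replicate 1 and 1.26 to 2.33 FPKM in replicate 2. Intervals cover counting error only and take reads as rounded to whole numbers. Those of Potri.001G248700 rest on lower bounds of its reads and may be too wide.

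None of the 10 loci differed 2-fold between the libraries. Of all loci that averaged 1 FPKM or more, 5.03% did. The ratio of replicate 1 to replicate 2 ran from 0.813 for Potri.009G042500 to 1.49 for Potri.006G097000. For Potri.010G193100 it was 1.01, with an exact Clopper-Pearson 95% interval of 0.938 to 1.08. Such an interval treats the reads of a locus as split between the libraries by chance alone.

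In replicate 1, 9 of the 10 laccases were higher, all but Potri.009G042500, a count chosen after the values were seen. The same held for 53.5% of all loci that averaged 1 FPKM or more. The median log2 ratio of replicate 1 to replicate 2 was 0.28 over the 10 laccases. It was 0.02 over the 21231 loci that averaged 1 FPKM or more and were above 0 in both libraries. With the libraries scaled by the median of ratios, or to 1 common sum, 8 of the 10 were higher in replicate 1, since Potri.010G193100 then changed sides. For 5 loci the counting interval of the ratio lay above 1: Potri.006G097000 (1.28 to 1.74), Potri.006G096900 (1.17 to 1.57), Potri.016G112000 (1.20 to 1.54), Potri.008G073800 (1.11 to 1.44) and Potri.001G401300 (1.09 to 1.35). The share of all loci with such an interval was not computed, so this count does not set the laccases apart from other loci. For Potri.009G042500 the interval was 0.658 to 1.003, and it included 1 for the other 4 loci as well. That of Potri.001G248700 rests on lower bounds of its reads and may be too wide.

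The laccase ratios were set beside those of all loci in a broad class of level. Between 5 and 100 FPKM the log2 ratio of 14519 loci had an SD of 0.43, and the middle 95% of loci ran from -0.91 to 0.69. All 9 laccases in that range of level fell inside it, the highest being Potri.006G097000 at 0.58. This ratio was larger than the SD, as were those of Potri.006G096900 and Potri.016G112000, each 0.44. How many loci of closely similar level had ratios as large was not computed. A further set of 856 loci had 1 listed transcript, at least 20 recovered reads in each library and a recovered length of 1801 to 2316. Their median log2 ratio was 0.02 and 52.0% were higher in replicate 1, near the values over all loci given above. With 1 library on each side no test can be made of the shift, and the libraries' stage or RNA was not tested as its source. In whole pieces of stem, fewer lignifying cells and less laccase RNA per cell cannot be told apart.

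**Figure D2:**
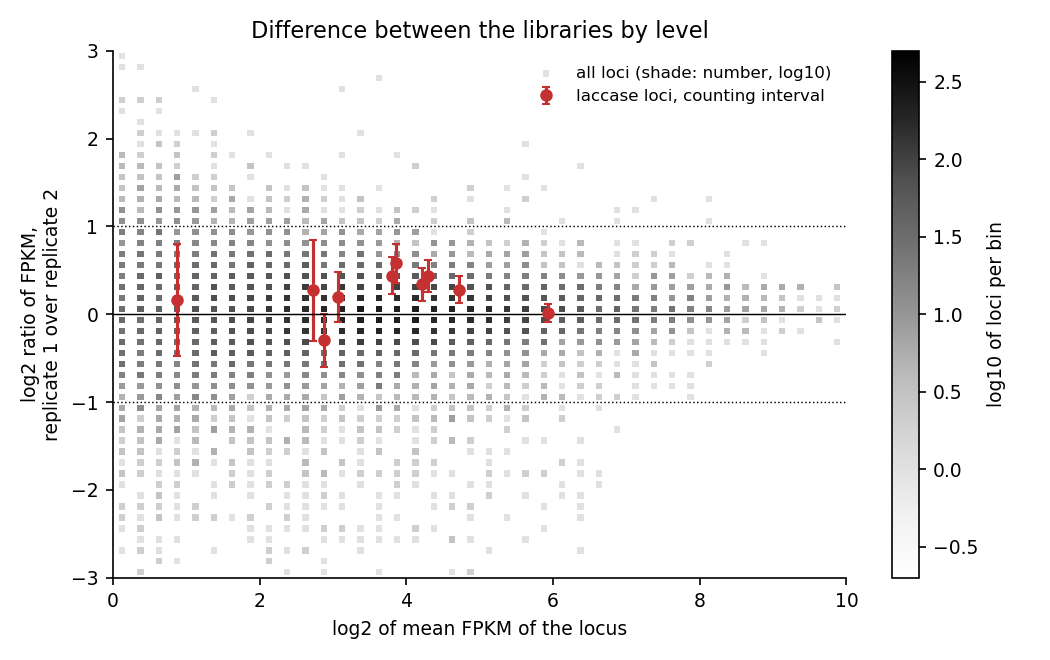
The log2 ratio of FPKM, replicate 1 over replicate 2, against the log2 of the mean FPKM of a locus; grey squares are bins of all loci (shade gives the log10 number per bin, axis limited to 3 on either side), red points are the 10 laccases with exact 95% counting intervals, and dotted lines mark a 2-fold difference. Of the 10, 9 lie above 0 and none reaches a dotted line. The interval of Potri.001G248700 rests on lower bounds of its reads and may be too wide.

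Potri.006G096900 and Potri.006G097000 follow each other in the list and were nearly equal in level. In replicate 1 the ratio of Potri.006G096900 to Potri.006G097000 was 0.921, from 16.1 against 17.5 FPKM, with an exact 95% interval of 0.799 to 1.06. In replicate 2 it was 1.01, from 11.9 against 11.7 FPKM, with an interval of 0.865 to 1.19. The order of the copies turned between the libraries, and their mean log2 ratio of -0.05 ± 0.10 (SD, n = 2) was smaller than its spread. Of 12485 pairs of adjacent detected loci in the whole list, 1.58% were as close as or closer than these, and the median pair was 2.87-fold apart. Both copies were higher in replicate 1, by a ratio of 1.36 for Potri.006G096900 and 1.49 for Potri.006G097000.

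The recovered reads of this pair were not whole. Potri.006G096900 carried 397.20 reads in replicate 1 and 334.63 in replicate 2, over a length of 2256. Potri.006G097000 carried 387.77 and 296.41 reads, over a length of 2028. Each locus has 1 listed transcript, and the source of the decimals was not tested. The sums over the pair, 784.97 and 631.04, were 0.03 and 0.04 off a whole number. With which loci reads may have been shared, and how many, was not tested, and neither the counting intervals nor the closeness of the pair takes account of such sharing.

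Potri.016G112000 and Potri.016G112100, also adjacent in the list, stood far apart. Potri.016G112000 had 22.5 FPKM against 1.93 FPKM for Potri.016G112100 in replicate 1, a ratio of 11.6 with an exact 95% interval of 8.52 to 16.3. In replicate 2 it had 16.6 FPKM against 1.73 FPKM, a ratio of 9.62 with an interval of 7.05 to 13.4. The mean log2 ratio was 3.40 ± 0.19 (SD, n = 2), far larger than its spread. Of the adjacent detected pairs, 14.0% were as far apart as or farther than these. The copies summed to 24.4 FPKM in replicate 1 and 18.3 FPKM in replicate 2, against 33.5 and 23.5 FPKM for the Potri.006G096900 and Potri.006G097000 pair.

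The recovered reads of the Potri.016G112000 and Potri.016G112100 pair were not whole in replicate 2. There Potri.016G112000 carried 469.16 reads and Potri.016G112100 carried 43.84, which together make 513.00. In replicate 1 Potri.016G112000 carried 556.00 reads and Potri.016G112100 carried 43.00, each locus whole by itself. Whether reads were divided between these copies was not tested. The other 4 laccases with 1 listed transcript, Potri.001G248700, Potri.001G401300, Potri.008G064000 and Potri.009G042500, gave whole reads in both libraries. Of all single-transcript loci above 0 in both libraries, 84.2% could be solved for whole reads. The search stopped at a product of reads of 1000000, so the rest need not all hold fractions.

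**Figure D3:**
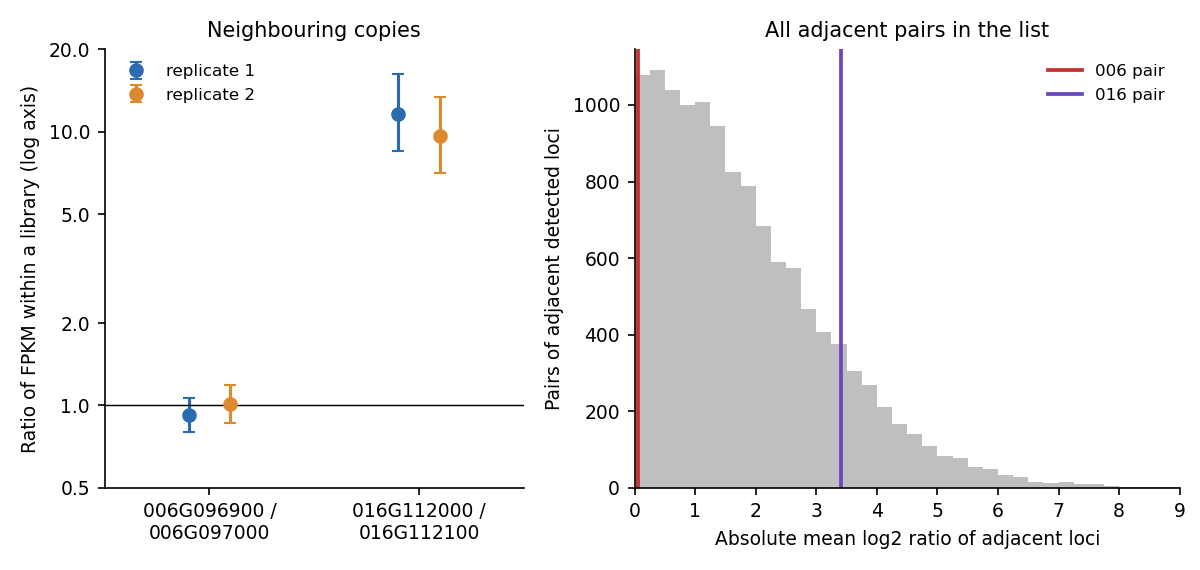
Left, the ratio of FPKM of the first to the second copy within each library (log axis), with exact 95% intervals that cover counting error only; right, the absolute mean log2 ratio of all 12485 adjacent detected pairs, with the laccase pairs as vertical lines. The Potri.006G096900 and Potri.006G097000 pair lies at 0.921 and 1.01, and the Potri.016G112000 and Potri.016G112100 pair at 11.6 and 9.62.

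Levels around the laccases varied widely. Of the 32 loci that lie within 2 places of a laccase or laccase pair in the list, 21 were detected, where 56.5% of all listed loci were. At 3 of the 8 places, around Potri.010G193100, Potri.008G073800 and the Potri.006G096900 and Potri.006G097000 pair, every flanking locus had a lower mean than the laccases. These laccases had means above those of 77.2% to 95.7% of all listed loci. How often all flanks lie lower around other loci of like level was not computed, so whether the count is particular to these places was not tested. The flanks of this pair reached at most 11.5 FPKM. Around Potri.009G042500, whose mean was above that of 64.3% of listed loci, 3 of the 4 flanking loci were higher, up to 20.3 FPKM. Position here means the order of IDs, as no coordinates were used.

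Of the 10 laccases, 7 had 1 listed transcript and 3 had several. In these 3 the transcript numbered 1 led in both libraries. Over all detected loci with several transcripts, the leader was the same in both libraries in 91.1%.

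In Potri.010G193100 the shares of the transcripts differed between the libraries more than the locus sum. Its transcript 1 had 51.3 and 37.2 FPKM in replicates 1 and 2, and transcript 2 had 9.95 and 23.6 FPKM. Transcript 2 therefore held 16.2% of the locus in replicate 1 and 38.8% in replicate 2, although the locus sum differed by a ratio of only 1.01. In recovered reads, transcript 1 carried 1302.69 and 1079.45 reads over a length of 2316, and transcript 2 carried 196.31 and 531.55 over a length of 1801. The reads of the locus summed to 1499.00 and 1611.00, both whole. Because the transcripts differ in length, the FPKM sum depends on how reads are assigned to them. Per 1000000 of the implied total, the locus had 136.8 reads in replicate 1 and 128.7 in replicate 2, a ratio of 1.06 that does not depend on the assignment.

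Potri.008G073800 behaved alike at a lower level. Transcript 1 had 19.5 FPKM in replicate 1 and 12.2 FPKM in replicate 2, which was 94.0% and 74.3% of the locus. Transcript 2 had 0.724 and 1.78 FPKM, and transcript 5 had 0.523 and 2.45 FPKM. Transcripts 3 and 4 were listed at 0 in both libraries. The reads of transcripts 2 and 5 were few, at 17.05 and 12.25 in replicate 1 and 47.93 and 65.47 in replicate 2. The locus summed to 486.00 and 439.00 reads, with transcript 1 taken at a length of 2132, the value that made both sums whole, where 1066 was the smallest that matched.

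In Potri.016G112000 the smaller transcript went the other way. Transcript 1 had 20.8 FPKM in replicate 1 and 16.0 FPKM in replicate 2, and transcript 2 had 1.72 and 0.626 FPKM. Transcript 2 thus held 7.66% of the locus in replicate 1 and 3.77% in replicate 2. Its reads were few, at 41.18 in replicate 1 and 17.07 in replicate 2. The 4 transcripts above 0 that did not lead their locus all differed at least 2-fold between the libraries, and none of the 10 leading transcripts did. Of all transcripts that averaged 1 FPKM or more, 13.5% were 2-fold apart, and of those that led their locus in neither library, 32.0% were. The recovered reads of these transcripts are fractions, so their shares are estimates of the authors' quantification, and a change in splicing was not tested.

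**Figure D4:**
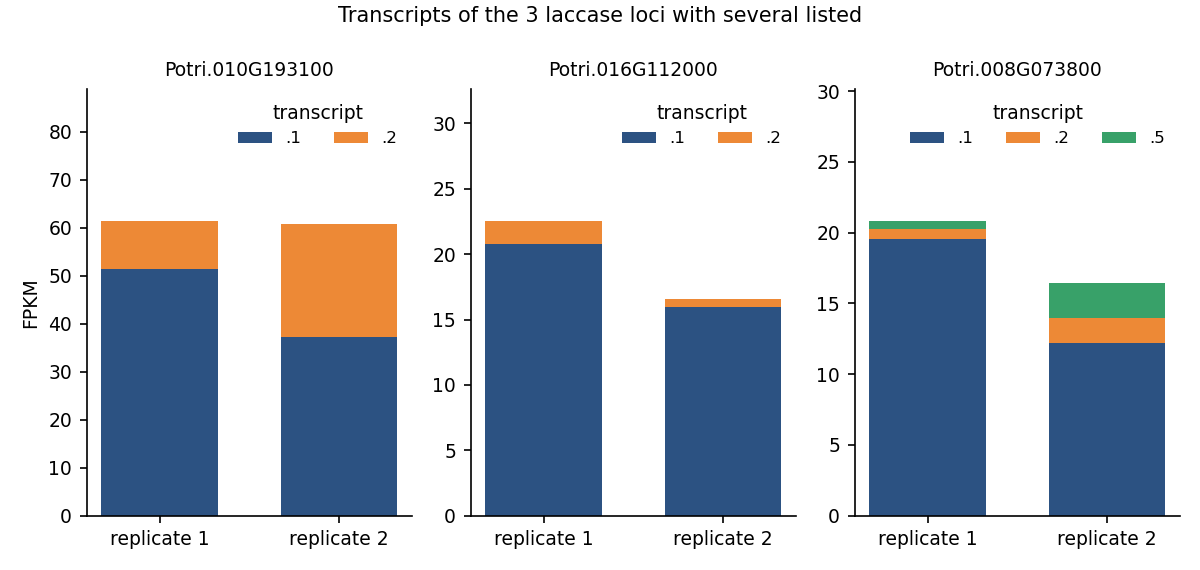
FPKM of each transcript above 0, stacked to the locus sum, for the 3 laccase loci with several listed transcripts, in both libraries; the vertical axes differ between panels. Transcript 2 of Potri.010G193100 fills 9.95 FPKM in replicate 1 and 23.6 FPKM in replicate 2 of nearly equal bars.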

How the data were processed

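RNA-seq was measured in 2 libraries of 1 group. The deposited FPKM were computed by the authors, per the file headers. Bowtie2 2.2.3 and HISAT2 2.1.0 are named, per the submitters' processing notes. For the quantifier, build and annotation, a name is not given in the sources used here. FPKM were used as deposited and summed per locus. The 10 members, and the lists and measures, were chosen with earlier results of these data known; all 10 loci and their transcripts are named, and no list of other named genes could be matched to IDs. No test was made, since the labels hold 1 group.

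Reads were recovered after the data were seen, as follows. The commonest ratio of replicate 2 to replicate 1 under 1 FPKM (0.876) gave the relative worth of 1 read. Single-transcript loci were solved for the smallest whole reads (relative tolerance 1e-08, product up to 1000000), the totals for whole lengths (80.6% of 5365 loci gave one), and the other transcripts for hundredths of a read at lengths from 150 to 3000. The recovery was tested on simulated data. Python 3.11.15, numpy 2.4.6, pandas 2.3.3, SciPy 1.17.1 and matplotlib 3.10.9 were used. Alternatives covered scaling, minimum level, fold, pseudocount, the leading transcript alone and leaving out each replicate.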

Additional observations from a re-analysis of the deposited data

How the results depend on the processing

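The laccase sum of 178.3 FPKM was 157.6 FPKM with the leading transcript of each locus only, which leaves out the rest by construction, and 164.8 to 191.7 FPKM with 1 replicate left out. The median locus level of 14.3 FPKM was 11.8 to 16.8 FPKM with 1 replicate left out. The mean log2 ratio of Potri.016G112000 over Potri.016G112100, 3.40, was 2.85 with a pseudocount of 1, which shrinks the ratio of a low locus by construction, and 3.27 to 3.54 with 1 replicate left out. That of Potri.006G096900 over Potri.006G097000, -0.05, was -0.12 to 0.02. Of the 10 places in the order of levels, 6 were kept without replicate 1 and 8 without replicate 2. The count of detected loci was 10 in either library alone and 9 at a minimum of 5 FPKM. The count 2-fold apart was 0 under each of the 9 alternatives. A fold of 1.5 was 1 of them, and the ratio of Potri.006G097000, 1.49, lay only just under it. The share of all loci at that fold was not computed. The 3 leading transcripts were the same in either library alone. No paired analysis was possible because both libraries belong to 1 group. Depth limits Potri.016G112100, which rests on 43.00 and 43.84 reads.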
